A study of Drosophila melanogaster with 2 samples.

Results

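The 8 Hox genes of Drosophila melanogaster lie in 2 complexes on chromosome arm 3R. The Antennapedia complex holds lab, pb, Dfd, Scr and Antp, and the Bithorax complex holds Ubx, abd-A and Abd-B. Bound regions were assigned to these genes when the summit of the region, its point of highest signal, stood no more than 500 bp from any transcription start site (TSS) that the annotation gives for a Hox gene, inside a Hox gene body, or between neighbouring Hox genes of 1 complex. By this rule, 148 of 30000 regions of the list called on both replicates pooled belonged to the complexes. So did 12 of the 3869 regions of the list thresholded by the irreproducible discovery rate (IDR) between replicates. The IDR list held the 3869 pooled regions of highest signal. A place in it therefore does not show that a region was found in each replicate. The replicate 1 list held 144 regions of the complexes and the replicate 3 list held 140, each out of 30000. The 8 genes were among 17683 annotated genes of the chromosome arms.

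The regions came from chromatin immunoprecipitation and sequencing (ChIP-seq) of whole embryos aged 0 to 16 h, pooled from males and females. All embryos were of 1 transgenic strain that expresses the product of CG11723 with GFP attached to its C terminus, and the immunoprecipitation used an antibody against GFP. The 2 samples are biological replicates numbered 1 and 3 of this 1 group. What drives the fusion in the embryo, and whether the endogenous CG11723 is intact, is not given in the sources used here. No untagged or input list was analysed here, so the results are descriptions set beside the same quantity over the genome, and no difference between groups was tested. The embryos mix all cell types, so strong binding in few cells and weak binding in many cannot be told apart.

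Hox genes encode homeodomain transcription factors that give each segment of the body its identity along the head-to-tail axis. The order of the genes on the chromosome follows the order of the body regions they specify, from lab in the head to Abd-B in the posterior abdomen. Each gene is controlled by large arrays of enhancers, by insulators (boundary elements) that separate neighbouring regulatory domains, and by Polycomb response elements that keep the gene silent in the segments where it is not used. Much of this regulatory DNA lies in introns and in the long intervals between the genes. The homeodomain proteins Exd and Hth bind DNA with the Hox proteins and sharpen their choice of sites.

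The Antennapedia complex, taken from the outer ends of lab and Antp, covered 338 kb at 3R:6661427-6999228, and the Bithorax complex, from Ubx to Abd-B, covered 316 kb at 3R:16656623-16972236 (dm6 coordinates, counted from 1, with gene models of Ensembl release 115). Of the 12 IDR regions, 7 lay in the Antennapedia complex and 5 in the Bithorax complex. None of them was at a Hox TSS, 6 lay inside a Hox gene body and 6 lay between neighbouring Hox genes. The sequences below run from 50 bp before to 50 bp after 6 of the 12 summits. They show 1 window, outside UTRs and with a searched motif, from each of 5 genes or intervals that held an IDR region, and a further Antp window with GAGAG at 2 sites. They are the plus strand of the RefSeq Release 6 assembly, written 5′ to 3′, and each name gives the gene or interval and the rank of the region by signal in the pooled list, with rank 1 the highest. Capitals mark GAGAG (bound by GAGA factor), GCCAT (the core bound by Pho, a Polycomb recruiter), TGATNNAT (a form of the joint Hox and Exd site), CACAGTG, and AGNNGGCGC (a core of the CTCF insulator site), on either strand.
pb to Dfd, rank 2070, chr3R:6763125-6763225: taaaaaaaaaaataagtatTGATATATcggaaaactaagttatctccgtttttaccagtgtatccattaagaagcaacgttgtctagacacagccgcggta
Antp, rank 1735, chr3R:6912690-6912790: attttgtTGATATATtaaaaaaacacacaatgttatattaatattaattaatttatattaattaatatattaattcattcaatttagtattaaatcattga
Antp, rank 3718, chr3R:6920102-6920202: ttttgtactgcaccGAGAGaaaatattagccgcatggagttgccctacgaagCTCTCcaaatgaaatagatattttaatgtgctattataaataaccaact
Ubx to abd-A, rank 814, chr3R:16798836-16798936: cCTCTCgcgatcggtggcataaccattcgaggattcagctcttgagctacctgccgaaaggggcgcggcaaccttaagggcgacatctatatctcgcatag
abd-A to Abd-B, rank 2825, chr3R:16834800-16834900: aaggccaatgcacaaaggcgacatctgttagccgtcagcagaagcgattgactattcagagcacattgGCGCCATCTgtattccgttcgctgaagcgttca
Abd-B, rank 2160, chr3R:16958374-16958474: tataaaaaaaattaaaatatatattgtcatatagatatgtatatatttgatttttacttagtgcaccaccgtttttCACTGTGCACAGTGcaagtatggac

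The strongest region of either complex lay between Ubx and abd-A. Ubx specifies the posterior thorax and first abdominal segment, abd-A specifies the middle abdominal segments, and the interval of 72.8 kb between them holds regulatory DNA of both genes. The summit at 3R:16798886 stood in an intergenic stretch 29.2 kb from the nearest abd-A TSS and 1.71 kb from the start of lncRNA:CR45750. Its signal was 239 in the pooled list (rank 814), 160 in replicate 1 (rank 593) and 67.9 in replicate 3 (rank 1968). The replicate summits lay 0 and 26 bp from the pooled summit. The region was therefore among the higher-ranked of both lists, and its summit window was the most GC-rich of the 12 IDR windows, at 55.4% G and C. The signal scale is not stated, so signals of different lists were compared by rank.

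A second Ubx to abd-A region, with its summit at 3R:16794438, stood 33.7 kb from the nearest abd-A TSS and 60.0 kb from the Ubx TSS, in intergenic DNA 6.13 kb from the start of Glut3, a sugar transporter gene. Its pooled signal was 99.1 (rank 3299), with 74.2 in replicate 1 (rank 2527) and 20.5 in replicate 3 (rank 9321). It ranked far lower in replicate 3 than in replicate 1.

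Within Abd-B, which specifies the posterior abdomen and has 6 annotated start sites, a pair of overlapping IDR regions lay in an intron. Their summits, at 3R:16958222 and 3R:16958424, were 2.06 and 1.86 kb downstream of the nearest Abd-B TSS. The pooled signals were 186 (rank 1294) and 134 (rank 2160). Both overlapped 1 region in replicate 1, of signal 124 (rank 1010), and 1 region in replicate 3, of signal 75.6 (rank 1662). The replicate 1 summit lay 10 bp from the first of the pooled summits, and the replicate 3 summit lay 1 bp from the other. The pair thus ranked high in both replicates, but the replicates placed the summit at different ends of it. These windows were rich in A and T, with 23.8% and 26.7% G and C. The window of rank 2160 held CACAGTG on both strands, in copies directly next to each other.

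The fifth IDR region of the Bithorax complex lay between abd-A and Abd-B, 4.80 kb upstream of the nearest abd-A TSS and inside introns of lncRNA:iab8 and MSAmiP. lncRNA:iab8 is a long transcript that covers much of the interval and carries a microRNA on the strand opposite to mir-iab-4. The summit was at 3R:16834850. Its pooled signal was 110 (rank 2825) and its replicate 1 signal was 106 (rank 1354), while no region of the replicate 3 list overlapped it. It was the only one of the 12 IDR regions with no overlapping region in one of the replicates. Over the whole IDR list, 154 of 3869 regions (3.98%) overlapped a region in replicate 1 alone and 93.4% overlapped regions in both replicates.

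**Figure D1:**
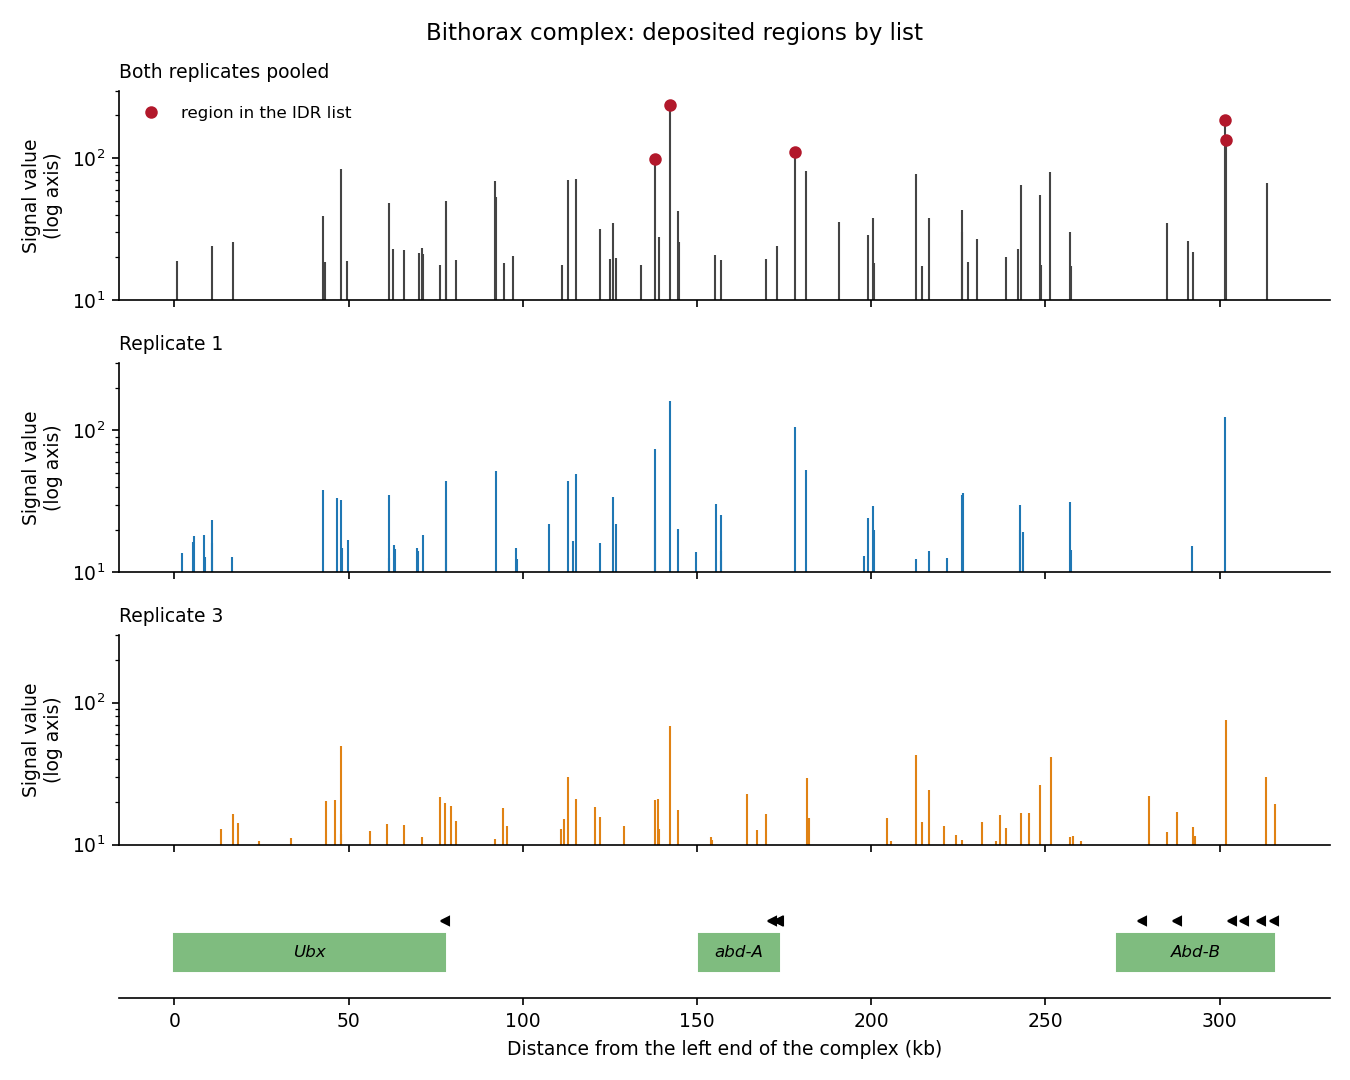
Signal value of each deposited region of the Bithorax complex (log axis) against distance of its summit from the left end of the complex in kb, for the pooled list and each replicate list; stems end at the signal, red points are IDR regions, green bars are gene bodies and triangles are start sites pointing in the direction of transcription. The 5 IDR regions stand between Ubx and abd-A, between abd-A and Abd-B, and in Abd-B, and the highest pooled signal is 239.

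In the Antennapedia complex, Antp, which specifies the second thoracic segment, held 4 of the 7 IDR regions, all in introns of its body of 103 kb. An overlapping gene model, CG46458, shares these introns. The strongest, with its summit at 3R:6912740, lay 20.1 kb downstream of the nearest TSS and had a pooled signal of 155 (rank 1735), 83.9 in replicate 1 (rank 2041) and 69.2 in replicate 3 (rank 1905). Its window was the most AT-rich of the 12, with 10.9% G and C, and held a TGATNNAT match. The region at 3R:6936341, which stood 3.50 kb upstream of the innermost Antp TSS and still inside the gene, had signals of 148 pooled (rank 1860), 94.8 in replicate 1 (rank 1650) and 50.2 in replicate 3 (rank 2932). The first ranked alike in the replicates, and the other ranked higher in replicate 1.

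The other Antp regions were less even. The region at 3R:6914564 had a pooled signal of 108 (rank 2915), with rank 2033 in replicate 1 and rank 6080 in replicate 3. The region at 3R:6920152 had a pooled signal of 91.3 (rank 3718), with rank 8590 in replicate 1 and rank 2770 in replicate 3. The order of the replicates was thus opposite in these regions. Both windows held GAGAG, the latter at 2 sites.

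A pair of IDR regions between pb and Dfd lay in the 5′ part of Ama, the gene of a secreted immunoglobulin-domain protein, in a stretch also covered by lncRNA:CR45593. The first, in the 5′ UTR of Ama with its summit at 3R:6762938, had a pooled signal of 142 (rank 1979). It overlapped a replicate 1 region of signal 91.5 (rank 1757) and a replicate 3 region of signal 60.0 (rank 2306). The second, with its summit at 3R:6763175 in an intron of Ama, had a pooled signal of 138 (rank 2070), with 79.2 in replicate 1 (rank 2255), and overlapped the same replicate 3 region. They were 20.9 and 21.1 kb from the pb TSS. The first summit lay 345 bp and the second 229 bp from an Ama TSS.

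The last IDR region stood between Dfd, which acts in the maxillary and mandibular segments of the head, and Scr, which acts in the labial segment and the first thoracic segment. Its summit at 3R:6818786 was intergenic, 27.0 kb past the Dfd TSS and 1.11 kb from the start of tRNA:Lys-TTT-2-1. The pooled signal was 113 (rank 2724), with 56.7 in replicate 1 (rank 3978) and 53.2 in replicate 3 (rank 2721). No IDR region lay in lab, pb, Dfd, Scr, Ubx or abd-A, nor between lab and pb or between Scr and Antp. All 8 Hox genes are at least 10 kb long, and 2 of 8 held an IDR summit in the body, against 40.4% of 1977 protein-coding genes of at least 10 kb. The Hox genes range from 10.6 kb (Dfd) to 103 kb (Antp), so that share does not match them in length. With 8 genes, the count is too small to set apart from it.

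**Figure D2:**
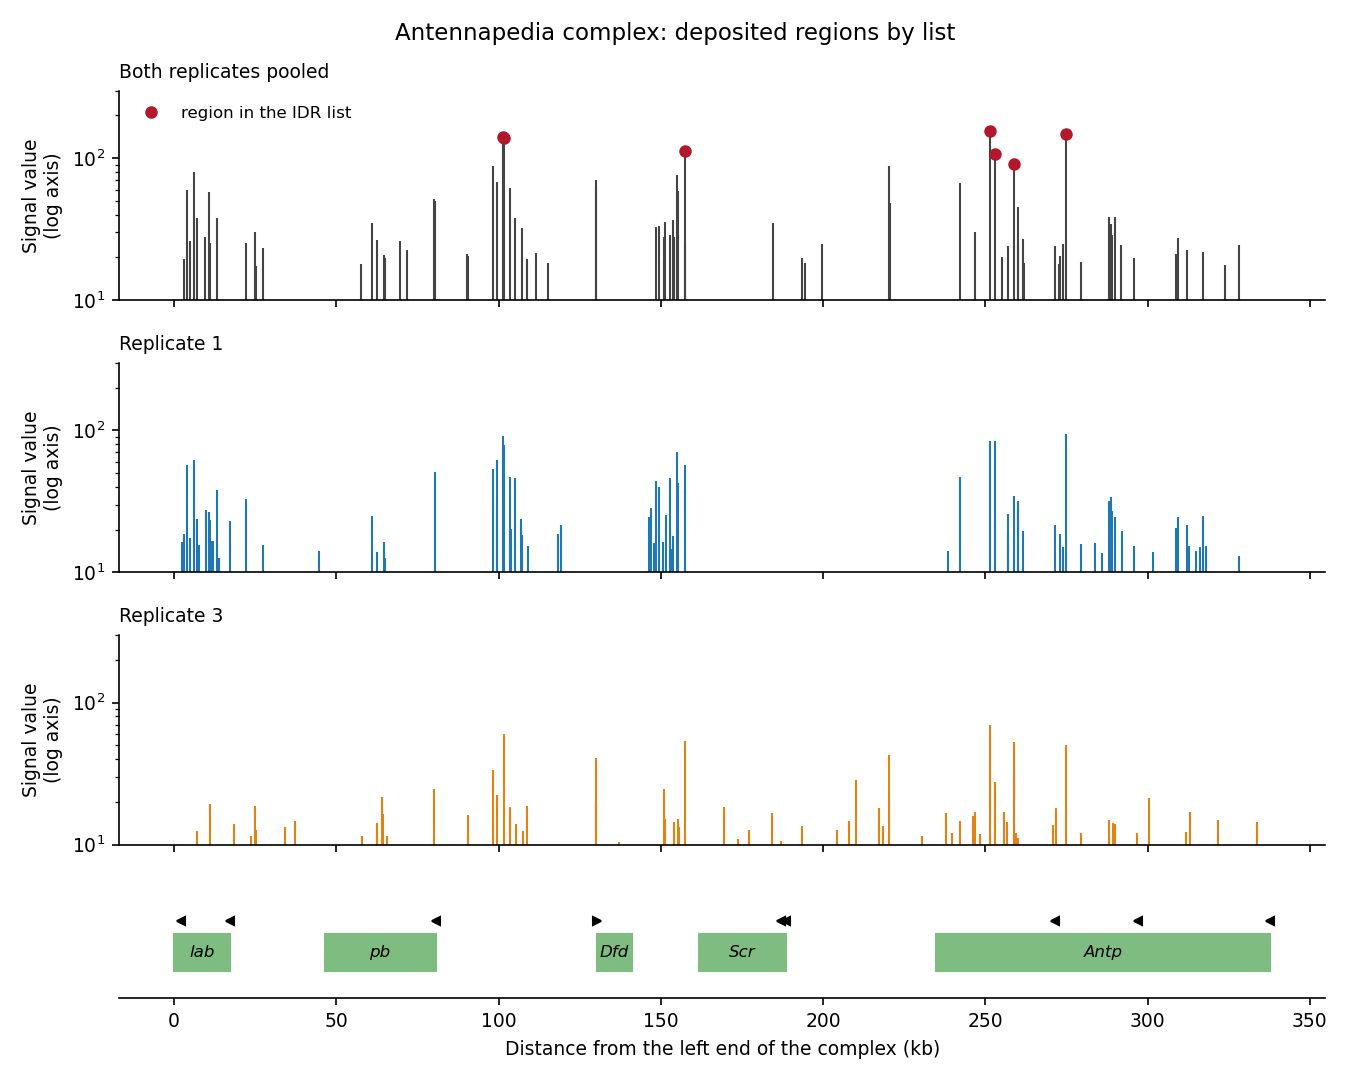
Signal value of each deposited region of the Antennapedia complex (log axis) against distance of its summit from the left end of the complex in kb, drawn as for the other complex, with pooled, replicate 1 and replicate 3 lists in separate panels. The 7 IDR regions stand at Ama between pb and Dfd, between Dfd and Scr, and in Antp, and replicate 1 is empty over 80.8 kb that include Scr.

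Over the 12 IDR regions, the median pooled signal was 136, against 144 over all 3869. By overlap of at least 1 bp, 11 of the 12 had a region in both replicates, and 9 of the 12 did when the pooled summit had to lie inside the replicate region. By annotation, 8 of the 12 summits were intronic, 3 were intergenic and 1 was in a 5′ UTR. The nearest summit to a Hox TSS was the Abd-B one at 1.86 kb, and the farthest was 33.7 kb away. The median GC content of the 12 windows was 33.2%, against 34.7% over the IDR list.

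**Figure D3:**
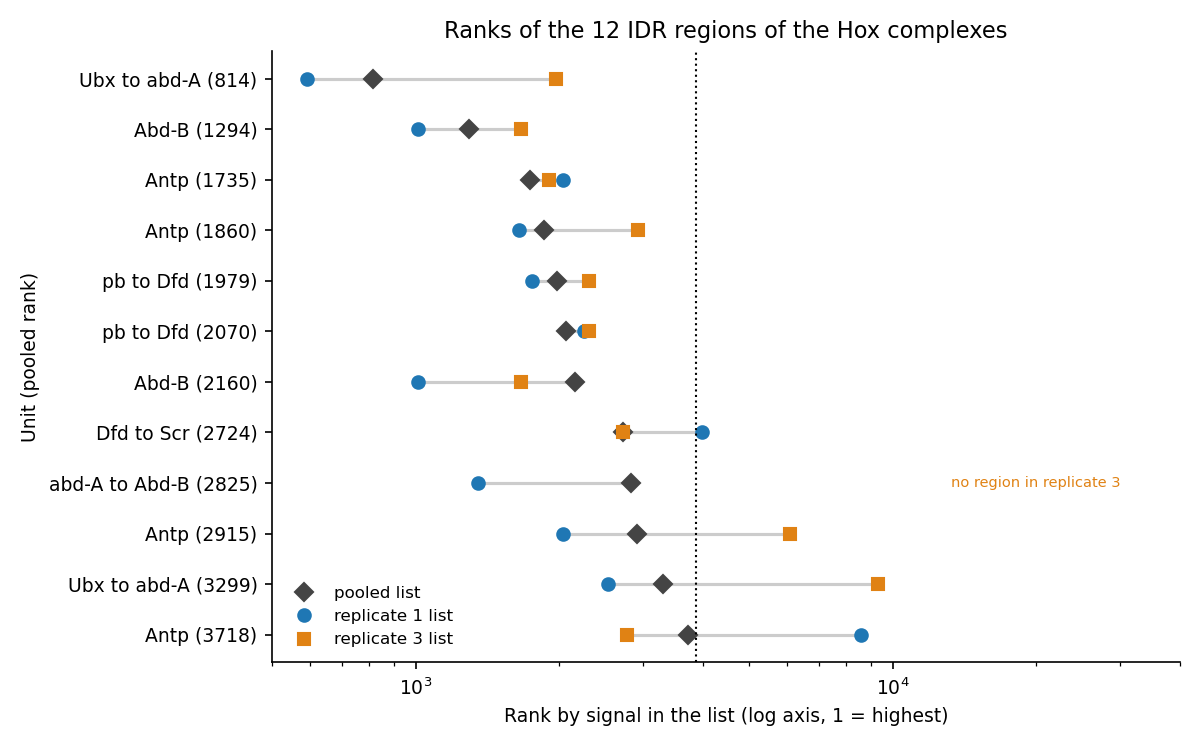
Rank by signal (log axis, 1 is the highest) of each of the 12 IDR regions in the pooled list and, by overlap, in the replicate 1 and replicate 3 lists; the dotted line marks rank 3869, the length of the IDR list. The top 7 regions lie left of the line in every list, and the abd-A to Abd-B region has no replicate 3 counterpart.

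No Hox gene had an IDR summit at a TSS, where 27.4% of the 1977 protein-coding genes of at least 10 kb had one. The exact binomial (Clopper-Pearson) 95% interval of 0 of 8 reaches up to 36.9% and covers counting error only, so 8 genes are too few to set their share apart from that of other long genes. In the longer pooled list, 5 of 8 had a summit at a TSS (pb, Dfd, Antp, Ubx and abd-A), against 69.4% of protein-coding genes of at least 10 kb. None of these summits was in the IDR list, and their signals ran from above to below the pooled-list median of 31.0. The highest was at Dfd, where the summit lay 301 bp upstream of the only TSS with a signal of 63.4 (rank 5999). At pb, an anterior Hox gene needed for mouthparts, the summits lay 271 and 470 bp inside the gene, the latter with a signal of 51.6 (rank 7835). At Ubx a summit lay 20 bp upstream of the TSS, with a signal of 49.97 (rank 8154). Those at abd-A (rank 20529) and at the innermost Antp TSS (rank 20689) were far lower in the pooled list.

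The replicates differed in which Hox start sites they listed. Only Antp and Ubx had a summit at a TSS in both. Ubx ranked 5949 in replicate 1 and 10063 in replicate 3, and Antp ranked 16324 and 11280. The start sites of lab (rank 15107) and pb (rank 4780) had a summit in replicate 1 alone, and those of Dfd (rank 3844), Scr (rank 29266) and Abd-B (rank 10323) in replicate 3 alone. abd-A had none in either replicate list. Some summits at Dfd and pb sat at the edge of the window. A further pooled Dfd summit stood 506 bp from the TSS (rank 5299), and the stronger replicate 3 summit 486 bp from it. The replicate 3 summit near pb stood 502 bp from that TSS. Others were well inside the window, with a weaker replicate 3 summit 262 bp from the Dfd TSS (rank 10116) and the replicate 1 summit 278 bp from the pb TSS.

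The windows of pooled summits at Hox start sites that held no UTR are given here for Dfd, Antp and the upstream Ubx region (rank 12094), in the same format, to show what the promoter summits contain.
Dfd, rank 5999, chr3R:6791485-6791585: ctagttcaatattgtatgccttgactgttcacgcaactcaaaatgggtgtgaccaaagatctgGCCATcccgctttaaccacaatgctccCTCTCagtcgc
Antp, rank 20689, chr3R:6933000-6933100: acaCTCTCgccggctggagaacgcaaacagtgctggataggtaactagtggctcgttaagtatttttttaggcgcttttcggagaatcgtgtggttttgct
Ubx, rank 12094, chr3R:16734596-16734696: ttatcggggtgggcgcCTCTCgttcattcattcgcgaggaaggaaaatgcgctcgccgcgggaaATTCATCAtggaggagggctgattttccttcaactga

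**Figure D4:**
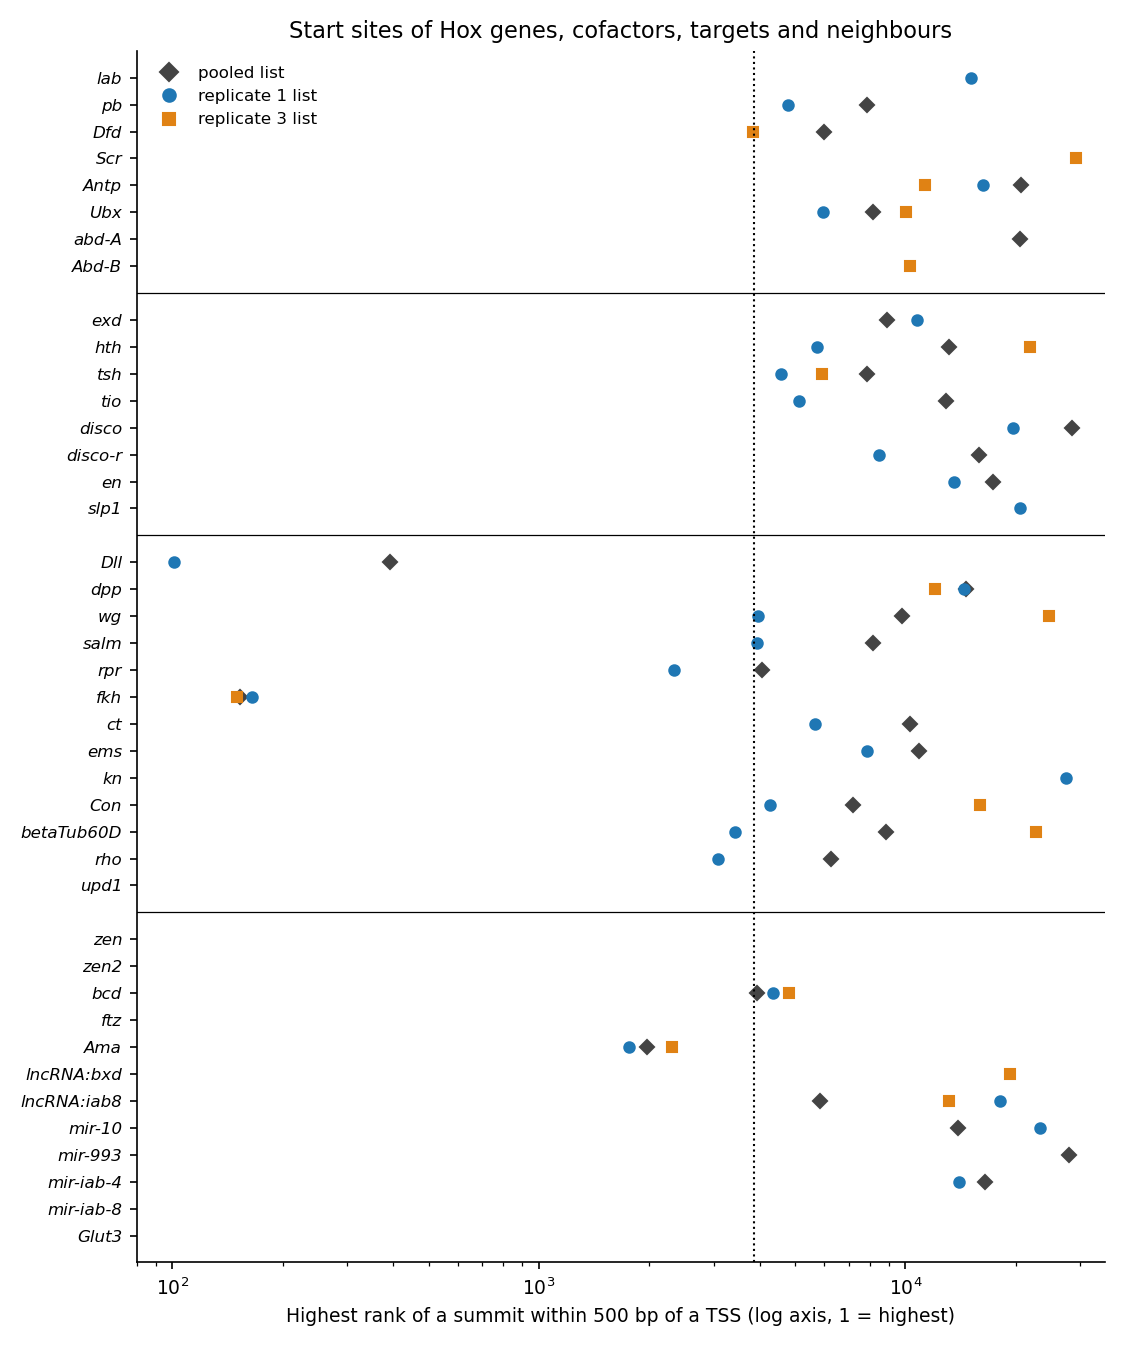
Highest rank (log axis, 1 is the highest) of any summit within 500 bp of a TSS of each named gene, in the pooled and replicate lists, with Hox genes at the top, then cofactors, targets and neighbouring genes; a gene with no mark had no summit there and the dotted line is rank 3869. All Hox pooled marks lie to the right of the line, while Dll, fkh and Ama lie to its left.

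The regions of the pooled list, which include the IDR regions, were spread along both complexes. Their density was 24.6 summits per 100 kb in the Antennapedia complex and 20.6 in the Bithorax complex, where the arms averaged 22.4 and the median of 1336 windows of 100 kb was 20 (quartiles 11 and 31). IDR summits numbered 1.84 per 100 kb over both complexes, against 2.89 over the arms and a median of 2 per window, and 74.6% of windows held at least 1. Of the 148 pooled regions, 12 (8.11%, interval 4.26% to 13.7%) were in the IDR list, against 12.9% of all 30000 pooled regions. Because the IDR list is the pooled list cut by signal, this share counts regions above that cut. It is no separate measure of reproducibility. The interval covers counting error only and treats regions as independent, though some overlap each other, as the Abd-B pair does. The median pooled signal was 27.8 in the complexes and 31.0 in the whole list. On arm 3R, which holds both complexes, the means were 18.9 pooled and 2.66 IDR summits per 100 kb. The Hox complexes, with 22.7 pooled summits per 100 kb, were thus near the genome-wide density and above that of 3R. The complexes were also above 3R in replicate 1 (22.0 against 18.4 per 100 kb), but not in replicate 3 (21.3 against 21.9). In IDR summits the complexes were below the mean of all arms and that of 3R.

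Within the complexes the density was uneven. The interval from Dfd to Scr held 12 pooled summits in 20.7 kb (58.0 per 100 kb) and the body of lab, the most anterior Hox gene, held 9 in 17.2 kb (52.4 per 100 kb). The body of Scr held 1 pooled summit in 26.9 kb, and that of Dfd held none in 10.6 kb. The dense units were dense in replicate 1 in particular. The lab body held 14 summits in replicate 1 and 2 in replicate 3, and the Dfd to Scr interval held 16 and 6. The Scr body, by contrast, held 0 in replicate 1 and 6 in replicate 3, and the Scr to Antp interval held 0 and 8. Replicate 1 had no summit at all over 80.8 kb from 3R:6819018 to 3R:6899814, a stretch that holds Scr and the pair-rule gene ftz, and 176 of 29993 distances between neighbouring summits of that list were as long or longer. The longest empty stretch of the Antennapedia complex was 30.3 kb in the pooled list and 21.2 kb in replicate 3. Sequencing depth is unknown, and what differed between the replicates was not tested.

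In the remaining genes and intervals of the Antennapedia complex the highest pooled region was of rank 7835 in pb, 12893 in Scr and 15588 between lab and pb. The highest replicate 1 regions there ranked 4780 in pb and 9172 between lab and pb, and the highest replicate 3 regions ranked 7128, 10975 and 10672. Dfd held 1 region in its body, of rank 29987 in replicate 3.

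The Bithorax complex was more even. The bodies of Ubx and abd-A held 14 and 4 pooled summits (18.0 and 17.5 per 100 kb), and the intervals from Ubx to abd-A and from abd-A to Abd-B held 20 and 21. Abd-B held 6 in its body, with 2 in replicate 1 and 7 in replicate 3. In abd-A the highest region ranked 20529 in the pooled list, 10308 in replicate 1 and 7918 in replicate 3, the lowest pooled peak of any Hox gene body that held one. Taking all 148 pooled regions, 42 had a summit inside a region of both replicates, 54 in replicate 1 alone, 29 in replicate 3 alone and 23 in neither. By overlap, 64 were in both (43.2%), against 49.5% of the whole pooled list.

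**Figure D5:**
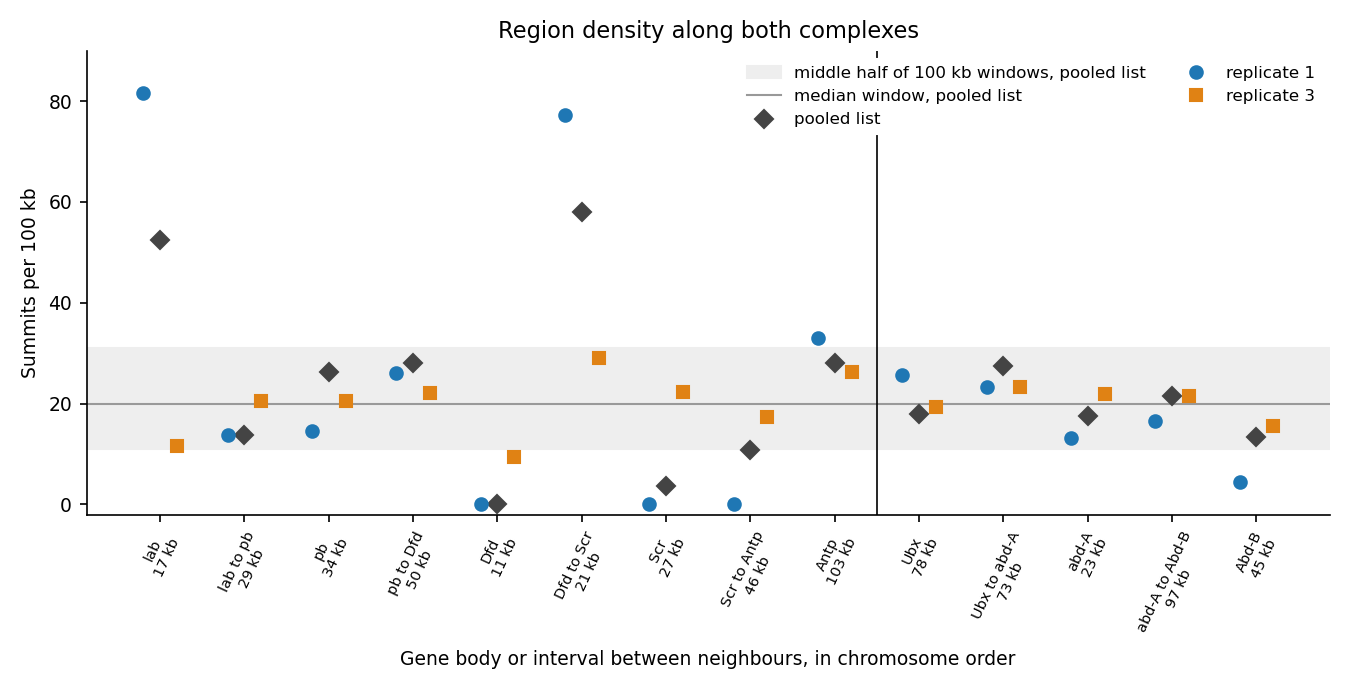
Summits per 100 kb in each Hox gene body and each interval between neighbours, in chromosome order with the Antennapedia complex left of the vertical line, for the pooled and replicate lists; the grey band and line give the middle 50% (11 to 31) and the median (20) of 100 kb windows in the pooled list. lab and Dfd to Scr stand above the band in the pooled and replicate 1 lists, and Dfd, Scr and Scr to Antp stand below it in those lists. In replicate 1, Antp also stands above the band and Abd-B below it.

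Several regions stood just outside the IDR list. The closest, between Scr and Antp with its summit at 3R:6881730, had a pooled signal of 88.7 (rank 3873) beside the lowest IDR signal of 88.8, with rank 3603 in replicate 3 and no region in replicate 1. A region at the start of bcd, the gene of the anterior morphogen, had a pooled signal of 87.5 (rank 3931), with rank 4361 in replicate 1 and rank 4808 in replicate 3. In the body of Ubx the highest region, at 3R:16704451, had a pooled signal of 84.2 (rank 4143) and rank 3007 in replicate 3. Between abd-A and Abd-B, a region at 3R:16837960 had a pooled signal of 80.8 (rank 4377), with rank 4508 in replicate 1 and rank 5662 in replicate 3. In the body of lab the highest, at 3R:6667449, had a pooled signal of 79.6 (rank 4464), with rank 3489 in replicate 1 and no overlapping region in replicate 3. These regions were in the top 3869 of 1 replicate or of neither.

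By annotation, 98 of the 148 pooled summits were intronic (66.2%), 28 were intergenic, 13 lay in non-coding exons, 4 in 5′ UTRs, 3 in 3′ UTRs and 2 in coding exons. The median GC content of their windows was 42.6%, against 40.6% over the pooled list. GAGAG was present in 20 of 148 windows (13.5%, against 13.4% of the whole pooled list), TGATNNAT in 9 (6.08% against 6.37%), and TATCGATA, the site of DREF, in 0 (against 0.743%). GCCAT was present in 35 windows (23.6% against 17.8%) and CACAGTG in 8 (5.41% against 2.06%). Among the 12 IDR windows, GAGAG was in 3, TGATNNAT in 2, GCCAT in 1, CACAGTG in 1 and TATCGATA in 0, against 11.9%, 7.13%, 14.9%, 3.00% and 1.76% of all IDR windows. Both strands were searched, and a match is a description of the letters, not of a bound site. The shares of GAGAG and TGATNNAT in the pooled windows were close to those of the whole list.

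The CTCF core AGNNGGCGC, a motif added after the windows had been read, was in 6 of the 65 pooled windows of the Bithorax complex and in 0 of the 83 of the Antennapedia complex, against 378 of 29999 pooled windows (1.26%). CTCF is an insulator protein known to act at boundaries of the Bithorax complex, and the positions of those boundaries were not used here. The 6 windows were the abd-A to Abd-B IDR window given above, in which the core overlaps a GCCAT match, and the following 5, shown because they are the other carriers of the core.
Ubx to abd-A, rank 5410, chr3R:16748720-16748820: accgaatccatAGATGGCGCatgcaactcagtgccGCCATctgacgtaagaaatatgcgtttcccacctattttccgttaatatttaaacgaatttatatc
Ubx to abd-A, rank 12807, chr3R:16782523-16782623: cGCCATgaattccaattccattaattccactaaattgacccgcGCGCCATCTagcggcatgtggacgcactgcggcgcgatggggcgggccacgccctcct
abd-A to Abd-B, rank 11565, chr3R:16857145-16857245: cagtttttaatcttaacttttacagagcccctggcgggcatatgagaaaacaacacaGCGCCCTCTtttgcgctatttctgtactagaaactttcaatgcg
abd-A to Abd-B, rank 4654, chr3R:16869342-16869442: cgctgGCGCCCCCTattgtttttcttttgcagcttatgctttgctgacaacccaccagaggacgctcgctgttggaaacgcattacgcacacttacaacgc
abd-A to Abd-B, rank 15435, chr3R:16882765-16882865: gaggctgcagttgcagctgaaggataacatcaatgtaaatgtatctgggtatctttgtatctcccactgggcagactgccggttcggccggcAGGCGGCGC

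Of these, the Ubx to abd-A region of rank 5410 lay in an intron of lncRNA:bxd, a transcript of the Ubx regulatory domain, 14.3 kb upstream of the Ubx TSS, and had a pooled signal of 68.9. The region of rank 4654 had a pooled signal of 77.0 and stood at rank 3623 in replicate 3 and rank 29994 in replicate 1. The region of rank 11565 lay 0.853 kb from the start of mir-iab-8, the microRNA gene on the strand opposite to mir-iab-4. In 5 of the 6, replicate 1 gave the higher rank, and 3 of the 6 overlapped a region in replicate 1 alone. Of the whole pooled list, 29.05% overlapped a region in replicate 1 alone. The share of all pooled regions ranked higher in replicate 1 was not computed, and 6 windows are too few to set these counts apart.

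The longest run of letters with at least 1 G or C shared by windows of different IDR regions was GGCGACATCT. It occurred in the strongest region, between Ubx and abd-A (rank 814), and in the abd-A to Abd-B region (rank 2825), on the same strand in both, and in 3 of 3869 IDR windows and 11 of 29999 pooled windows. It was found by comparing every pair of the 12 windows after the data were seen, and no factor is assigned to it.

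Other genes inside the complexes were also considered. Of 54 annotated genes other than the Hox genes with a TSS there, 2 had an IDR summit at a TSS (Ama and lncRNA:CR45593, which share it), against 13.1% of all annotated genes, and 14 had a pooled summit there. Among 12 named neighbours, 1 (Ama) had an IDR summit at a TSS (8.33%) and 6 had a pooled one, where all annotated genes had 13.1% and 35.1%. lncRNA:iab8 had a pooled signal of 64.5 (rank 5851) at a TSS, and bcd one of 87.5. The microRNA genes mir-10 (rank 13961), mir-iab-4 (rank 16485) and mir-993 (rank 27936) were lower. The lncRNA:CR42651 start, between Dfd and Scr, had a pooled signal of 76.5 (rank 4692), with rank 2787 in replicate 1 and rank 15709 in replicate 3. Also in the pooled list were lncRNA:CR44930 (rank 6277), lncRNA:TS16 (rank 10053), lncRNA:CR45915 (rank 13586), Ccp84Ag (rank 15588), lncRNA:CR44945 (rank 25901) and CG31275 (rank 28311). The homeobox genes zen, zen2 and ftz, which descend from Hox genes but have lost the role in segment identity, had no summit at a TSS in any list.

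The genes of proteins that act with Hox proteins had no IDR summit at a TSS (0 of 8), where 13.1% of all annotated genes had one, so 8 genes are too few to set that count apart. In the pooled list 7 of 8 had one, against 37.2% of all 13945 protein-coding genes and 69.4% of those of at least 10 kb. The 8 genes range from 1.43 kb (slp1) to 132 kb (hth), so neither share matches them in length. The pooled count rested on replicate 1, whose list had a summit at a TSS of all 8 (39.7% of protein-coding genes). The replicate 3 list had one for hth and tsh alone, 2 of 8 (40.8% of protein-coding genes). exd had a pooled signal of 46.7 (rank 8891) and was not listed at a TSS in replicate 3. hth held 4 IDR summits in its body and 89 pooled summits in 132 kb, which is 67.4 per 100 kb. Its counts were 87 in replicate 1 and 59 in replicate 3, so the density was high in both. disco-r, a zinc-finger gene that acts with Hox genes in the head, held 2 IDR summits in its body of 30.9 kb. tsh, a trunk partner of the Hox genes, had a TSS signal of 51.4 (rank 7864) and its relative tio one of 34.9 (rank 12876). disco (rank 28407) and en (rank 17348) were low in the pooled list, and slp1 had a TSS summit in replicate 1 alone (rank 20606).

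Among 13 genes named as Hox targets in the fly, 2 had an IDR summit at a TSS (15.4%, interval 1.92% to 45.4%). That share is close to the 13.1% of all annotated genes, while protein-coding genes of at least 10 kb had 27.4%. The 13 genes range from 0.901 kb (rpr) to 142 kb (Con), so neither share matches them in length. In the pooled list 11 of 13 had a TSS summit, against 37.2% of protein-coding genes and 69.4% of those of at least 10 kb. The replicate 1 list had one at 12 of 13 and the replicate 3 list at 5 of 13, beside the 39.7% and 40.8% given above. fkh, the salivary gland gene that Scr activates, had the strongest, 229 bp from a TSS, with signals of 527 pooled (rank 153), 284 in replicate 1 (rank 165) and 247 in replicate 3 (rank 150). The replicates placed it at nearly the same rank. Dll, the leg gene that Ubx and abd-A repress in the abdomen, had a pooled signal of 350 (rank 392) 83 bp from a TSS and 338 in replicate 1, a higher rank than that of fkh there, while replicate 3 listed no summit within 500 bp of a Dll TSS.

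Other targets had IDR summits in the gene body only. dpp, which Ubx activates in the midgut, held 1 (signal 203, rank 1109), ct held 2 (the stronger at 139, rank 2039) and rho held 1 (signal 105, rank 3039). rpr, a cell death gene controlled by Dfd, stood just outside the IDR list at its TSS with a pooled signal of 85.4 (rank 4059) and rank 2333 in replicate 1. wg, salm, ems, Con and betaTub60D had TSS summits of pooled rank 7218 to 10880, dpp had one of rank 14683, and kn and upd1 had none in the pooled list. The replicates again differed, with a TSS summit at 5 of 13 targets among the top 3869 regions of replicate 1 (14.3% of protein-coding genes) and at 1 of 13 among those of replicate 3 (17.6%).

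Other clusters of developmental genes were taken for scale. The NK homeobox cluster on the same arm held 1.12 IDR and 13.5 pooled summits per 100 kb, the Iroquois complex 2.32 and 35.5, the achaete-scute complex 0 and 8.59, and the engrailed and invected pair 0 and 29.8. The Hox complexes, with 1.84 and 22.7, lay within the range of these clusters. Of the 15 genes in them, 1 (6.67%, interval 0.169% to 31.9%) had an IDR summit at a TSS, against 13.1% of all annotated genes. That gene was tin, the heart homeobox gene, with a pooled signal of 289 (rank 572).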

How the data were processed

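The deposited data were region lists in narrowPeak format for 2 ChIP-seq samples of 1 group. Per the labels and the notes deposited with the files, regions were called with a control on each replicate and on both replicates pooled, and listed before thresholding, and the IDR list was derived from these lists. Which programs aligned the reads and called the regions, and at what IDR cut-off, is not given in the sources used here. Each region of the authors' lists has a signal value (scale not stated) and a −log10 q value; the latter was capped, with 3069 of 3869 IDR regions at its maximum of 3.79, so regions were ranked by signal within a list. Read depth is unknown.

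The dm6 lists were read with Python 3.11.15, pandas 2.3.3, numpy 2.4.6 and scipy 1.17.1, and drawn with matplotlib 3.10.9. All 3869 IDR regions equalled the pooled regions of the same rank, so the IDR list was the pooled list cut at rank 3869. No region ended past its arm. Gene models were those of Ensembl release 115 (BDGP6.54) on the 6 chromosome arms, without transposable element models; sequence was RefSeq Release 6. The dm3 lists were not used. A region was placed by its summit, a TSS window was 500 bp on each side, and replicate regions were matched by the pooled summit and by an overlap of at least 1 bp. Windows of 50 bp on each side of a summit were searched on both strands for 5 motifs and for the CTCF core, which was added afterwards, as were the runs of letters shared between windows. The counting was tested on simulated positions. Intervals of shares are exact binomial (Clopper-Pearson, 95%).

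The Hox genes, the gene lists and the rule for the named regions (every IDR region, the highest region of each gene and interval, and listed cofactors, targets and neighbours) were chosen with earlier results of these data known. With 1 group, no test between groups was made. Alternatives were other TSS windows (200 and 1000 bp), midpoints, overlaps, other list lengths, merged regions, widened spans and each replicate alone.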

Additional observations from a re-analysis of the deposited data

How the results depend on the processing

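Of 74 recomputed values, 59 stayed within 1.5 times the value reported and 15 did not. The count of Hox genes with an IDR summit at a TSS stayed at 0 except for 1 (Dfd) in the 6000 pooled regions of highest signal and 1 (Dfd) without replicate 1, and ranged from 0 to 1 over the single replicates. With a TSS window of 200 bp, Hox genes with a pooled summit fell to 2 (Ubx and abd-A), targets with an IDR summit to 1 (Dll) and neighbours to 0. Cofactors and targets with a pooled summit numbered 2 and 5 without replicate 1, and 8 and 12 without replicate 3. Over the single replicates, Hox genes with a listed summit ranged from 4 to 5, though the genes differed, and targets ranged from 1 (fkh, without replicate 1) to 5 (without replicate 3). In the upper 50% of the IDR list, 2 summits were left in each complex, 0.612 per 100 kb over both, and 0 neighbours; these follow from the shorter list. In the 6000 pooled regions there were 15 and 14 summits in the Antennapedia and Bithorax complexes, 4.44 per 100 kb, and 3 neighbours, from the longer list. Without 1 of the replicates, the complexes held 7 to 8 and 4 to 5 summits. Pooled regions found in both replicates numbered 42 by summit and 64 by overlap, a match added after seeing the data. No paired analysis was possible because the replicates belong to 1 group. Unknown depth and an absent control list limit what the lower ranks show.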
